A study of Mus musculus with 8 samples.

Results

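Endothelial genes of the developing kidney vasculature were examined as a set of 35 genes, chosen by name from a list of arterial, capillary and pan-endothelial genes, and all 35 were found among the 21291 gene rows of the deposited table. Polyadenylated RNA had been sequenced from both kidneys of single E14.5 mouse embryos, in 4 control and 4 mutant libraries. Controls were Six2-GFPcre tg/+ with the Etv5fl/fl alleles and 1 working copy of Etv4 (Etv4+/-). Mutants carried the same transgene and the same floxed Etv5 alleles but lacked both working copies (Etv4-/-). The transgene places Cre recombinase under the control of Six2, which is expressed in nephron progenitors, so Cre acts in these cells and in the nephron cells they form. The labels do not restrict the Etv4 null allele to any cell type, and they call the controls littermates without saying which embryos shared a litter. By the labels the groups therefore differ at Etv4 alone, and both can lose Etv5 where Cre is active.

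Blood vessels of the fetal kidney are lined by endothelial cells, which form arteries, the capillaries of the glomerulus and the vessels around the tubules. Their growth and survival depend on VEGF, which binds the receptors KDR, FLT1 and FLT4, and on angiopoietins, which bind TEK and act together with its relative TIE1. Endothelial identity is held by transcription factors of the ETS (ERG, FLI1), SOXF (SOX7, SOX17, SOX18) and TAL1/LYL1 families. Etv4 and Etv5 also encode ETS factors, which relay growth factor signals in nephron progenitors and the ureteric bud. In whole kidneys, more endothelial cells, more RNA per endothelial cell and a smaller share of RNA from other cells cannot be told apart.

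Values are given as normalized counts, the recovered estimated read count of a gene divided by the size factor of its library. Total estimated counts ran from 15515139 in control 4 to 39548327 in control 2. Control 4 stood apart in a further respect, since 18.4% of its counts came from Lars2, against at most 0.476% in any other library. The targeted gene followed its label, since Etv4 had 2816, 2803, 2816 and 2311 normalized counts across controls 1 to 4, against 294, 281, 219 and 164 across the mutants in the same order. Etv5 counted 3614 ± 491 in controls and 2119.7 ± 511 in mutants (mean ± SD, n = 4 each). The Y-linked gene Ddx3y had 1628, 1558, 1624 and 1553 normalized counts across controls 1 to 4 and was at 0 in all mutants, so embryo sex and genotype cannot be told apart in what follows. Each library is labelled as a separate kidney pair, but littermates among them were not identified, so embryos of 1 litter may be counted as independent.

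The defining endothelial markers were present in every library. Expressed per kilobase of the longest annotated transcript and averaged over the 8 libraries, the highest levels were those of Plvap, which forms the diaphragms of fenestrated capillaries (1963 normalized counts per kilobase), and Ramp2, a partner of the adrenomedullin receptor (1786). Rasip1 (1036), Tie1 (993), Eng (974), Pecam1 (947) and Aplnr (917) followed closely together. At the lower end of this per-length scale were Vwf (22.6), the clotting factor carrier of mature endothelium, Ptprb (52) and Esm1 (64.7), a secreted product of vessel tips. By normalized count without regard to length, Tie1 was the highest of the 35 and Esm1 the lowest. All 35 passed the filter on low values, which asked for 10 or more normalized counts in 4 or more libraries.

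Since Etv4 and Etv5 bind DNA as ETS factors, as do the endothelial factors ERG and FLI1, the sequences just upstream of the endothelial genes were searched for the ETS core. RefSeq start sites on GRCm38.p6 were matched for 20 of the 35 genes, and the 250 bases before the first listed start were scanned on both strands. The letters GGAAG occurred in 16 of these 20 windows (80.0%) and in 63.6% of all 27025 promoter windows of the same length. The longer forms CAGGAAG and CCGGAAG, each of which contains GGAAG, occurred in 4 of 20 and 1 of 20, against 10.5% and 7.05% of all windows. The SOX-type letters ACAAAG occurred in 3 of 20 (16.5% of all windows), and ACAATG in 0 of 20 (11.0% of all). Shown here are the windows of the 3 genes with the smallest p-values whose window lies wholly outside the annotated gene, with GGAAG or its reverse complement in capitals.
Tek, chr4:94739039-94739288, plus strand: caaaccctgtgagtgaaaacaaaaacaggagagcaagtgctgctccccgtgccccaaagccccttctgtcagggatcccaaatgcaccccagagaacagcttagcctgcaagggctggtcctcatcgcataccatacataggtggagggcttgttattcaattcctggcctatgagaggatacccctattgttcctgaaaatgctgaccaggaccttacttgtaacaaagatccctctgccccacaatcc
Adgrl4, chr3:151437632-151437881, plus strand: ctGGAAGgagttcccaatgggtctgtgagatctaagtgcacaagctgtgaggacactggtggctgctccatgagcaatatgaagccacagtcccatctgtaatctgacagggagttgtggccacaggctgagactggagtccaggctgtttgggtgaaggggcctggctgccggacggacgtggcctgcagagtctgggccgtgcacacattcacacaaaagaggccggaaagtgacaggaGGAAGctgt
Erg, chr16:95586594-95586843, minus strand: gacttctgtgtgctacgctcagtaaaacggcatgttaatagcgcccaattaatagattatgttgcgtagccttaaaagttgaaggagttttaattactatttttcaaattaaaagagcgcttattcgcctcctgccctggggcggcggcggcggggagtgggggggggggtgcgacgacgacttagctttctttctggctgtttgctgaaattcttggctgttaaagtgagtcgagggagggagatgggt
The Adgrl4 window held 2 matches, and the windows of Tek and Erg held 0. A match describes the letters only, and these data do not measure binding.

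Most endothelial genes stood slightly higher in mutant kidneys, by differing amounts, and no single one passed the test over all genes. Of 35 genes, 30 had a positive log2 fold change, against 51.7% of all 14974 genes tested. The median log2 fold change was 0.28, a 1.21-fold difference, beside a median of 0.0087 over all genes. Fold changes of 26 of the 35 lay between 0.15 and 0.45. With limma and Benjamini-Hochberg adjustment over all genes, 0 of the 35 passed a threshold of 0.05 in either direction (0.301% of all genes did, 0.0801% as higher), and the smallest adjusted p was 0.104. At an unadjusted p below 0.05, 16 were higher (6.33% of all genes) and 1 was lower (5.72% of all genes). Every mutant library lay above every control library for 6 of the 35 (4.17% of all genes), namely Tie1, Tek, Adgrl4, Pecam1, Flt4 and Nos3. The opposite held for 1, Ramp2 (4.43% of all genes). For 34 of the 35 the upper end of the 95% interval was below a log2 fold change of 1, the exception being Vwf (−0.20 to 1.13).

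**Figure D1:**
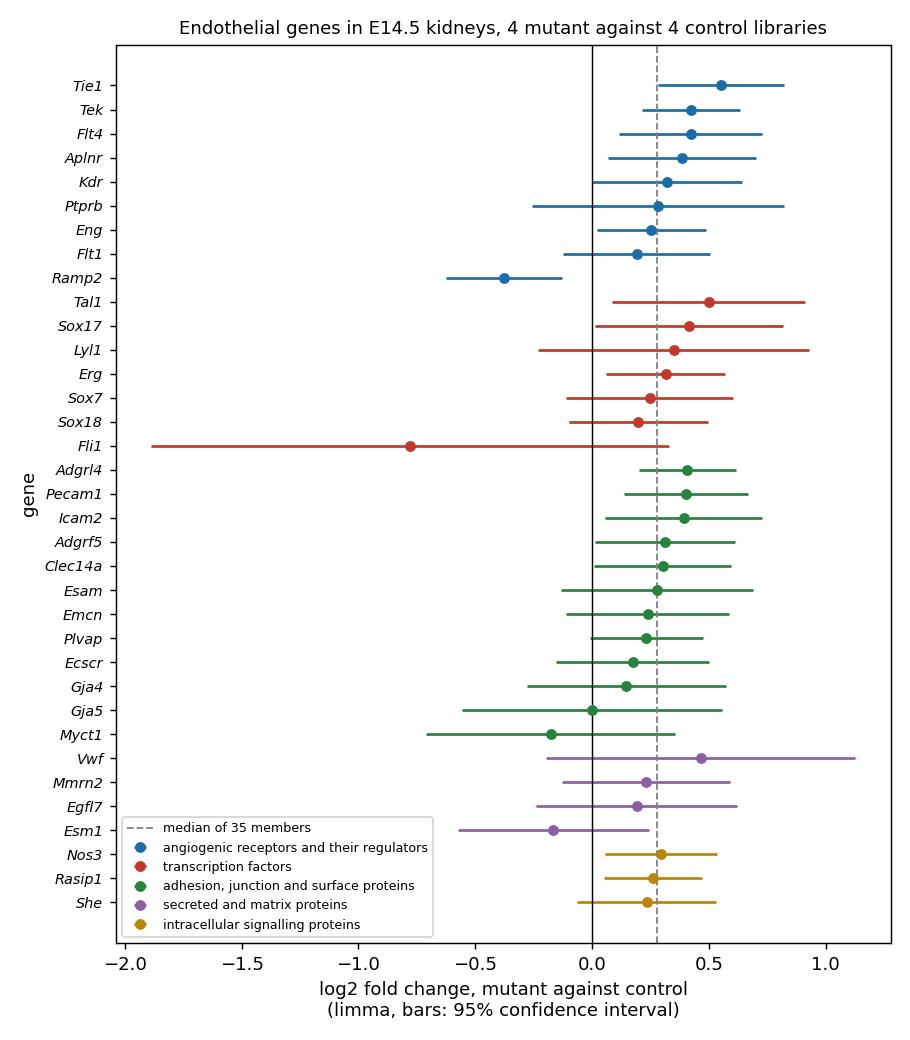
Log2 fold change (horizontal axis) of each of the 35 endothelial genes (vertical axis, grouped by role and coloured by it), 4 mutant against 4 control libraries; points are limma estimates, bars 95% intervals, and the dashed line is the median of 0.28. Most points lie between 0.15 and 0.45, while Ramp2, Fli1, Myct1 and Esm1 lie to the left of 0 and Gja5 at 0.

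The count of 16 depended on which libraries were included. Without controls 1, 2, 3 or 4 in turn it was 7, 18, 9 and 19, beside 5.04%, 6.28%, 5.08% and 9.44% of all genes in the same fits. Without mutants 1, 2, 3 or 4 it was 12, 9, 6 and 15, beside 6.68%, 6.23%, 3.97% and 4.36% of all genes. The count past the adjusted threshold was 0 in all 8 of these fits, and the median fold change ran from 0.22 to 0.33. With voom and library weights, which gave control 4 the lowest weight, 6 passed as higher (1.77% of all genes): Tie1, Tek, Pecam1, Adgrl4, Flt4 and Icam2. Just 1 gene passed in each of 3 further fits, Tie1 with the replicate number as a block (0.301% of all genes), Tek without control 4 and mutant 4 (0.401%), and Flt4 with proximal tubule markers as a covariate (0.541%).

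The angiopoietin receptors had the smallest p-values of the set. Tie1 had 2820.4, 4124, 3713 and 3064 normalized counts across controls 1 to 4, against 4692, 4846, 5449.7 and 4930.5 across the mutants in the same order. Its lowest mutant library was above its highest control, and the log2 fold change was 0.55 (SE 0.12; adjusted p = 0.104 by limma). Tie1 encodes an orphan receptor tyrosine kinase that modulates TEK, and lies at chr4:118471191-118490061, minus strand (GRCm38). Tek had 1488, 1664, 1713 and 1625 normalized counts across controls 1 to 4, against 2195, 2089, 2498 and 1949.7 across the mutants in the same order. The controls spanned a narrow range and all mutants lay above it, and the fold change was 0.42 (SE 0.09; adjusted p = 0.106 by limma). Tek, at chr4:94739289-94874976, plus strand, encodes the receptor of the angiopoietins. Ptprb, the phosphatase that dephosphorylates TEK, had a fold change of 0.28 (95% interval −0.26 to 0.82), with overlapping groups.

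Among VEGF receptors, Flt4 had 1702, 1747, 1606 and 1179 normalized counts across controls 1 to 4, against 2324, 2135, 2057 and 1778 across the mutants in the same order. FLT4 binds VEGF-C and is found on lymphatic and angiogenic endothelium. Its lowest mutant value exceeded its highest control value by a small margin, and the log2 fold change was 0.42 (SE 0.14; adjusted p = 0.248 by limma). Kdr, the main signalling receptor of VEGF-A, had 2982 ± 546 in controls and 3699 ± 450.1 in mutants (mean ± SD, n = 4 each) and a fold change of 0.32 (SE 0.14), at the edge of the unadjusted threshold. Flt1, which binds VEGF-A and limits its action, had one of 0.19 (95% interval −0.12 to 0.51). The groups overlapped for both.

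Other receptors varied in the same direction, with Ramp2 apart. Aplnr had 2329, 3377, 2637 and 3482 normalized counts across controls 1 to 4, against 3424, 3486, 4292 and 4106 across the mutants in the same order. Aplnr, the apelin receptor of venous and angiogenic endothelium, had a fold change of 0.39 (SE 0.14; adjusted p = 0.309 by limma), and control 4 lay within the mutant range. Eng, a co-receptor for BMP9 and TGF-beta, had one of 0.25 (95% interval 0.02 to 0.49). Ramp2 had 2167, 2002, 2524 and 2853 normalized counts across controls 1 to 4, against 1818, 1891, 1743 and 1835 across the mutants in the same order. For Ramp2 the mutant values were tightly grouped below all controls, with a fold change of −0.38 (SE 0.11; adjusted p = 0.206 by limma). On the deposited values, which carry no depth correction and shift the median of all genes to 0.48, it was 0.093. Control 4 was the highest library for Ramp2, at 0.36 above the mean of controls 1 to 3 on the log2 scale. The mutant difference of Ramp2 was −0.17 in controls 1 and 2 against mutants 1 and 2, and −0.64 in control 4 against mutant 4. Its longest transcript has 1178 bases, and the deviations of control 4 with transcript length are described below. RAMP2 carries the receptor CALCRL to the cell surface, where the pair binds adrenomedullin. The mean of Calcrl, which was not in the set of 35, was 897 ± 251 in controls and 794 ± 202 in mutants and its fold change was −0.17 (95% interval −0.66 to 0.32).

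Ramp2 lies at chr11:101246028-101259546, plus strand, 510 kb from Etv4, the gene that is null in the mutants, on the same chromosome. Of the other 3 endothelial genes on chromosome 11, Pecam1, Icam2 and Flt4, the nearest to Etv4 is 4.59 megabases away. Within 1 megabase on either side of Etv4, a window chosen after the value of Ramp2 was seen, 65 genes other than Etv4 were tested, Ramp2 among them. At an unadjusted p below 0.05, 7 of them, Ramp2 included, were lower (10.8%) and 4 higher (6.15%), beside 5.72% and 6.33% of all genes. Of the 65 genes 0 passed the adjusted threshold, and their median fold change was −0.015. Linkage to the Etv4 allele and the loss of Etv4 cannot be told apart for Ramp2.

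**Figure D2:**
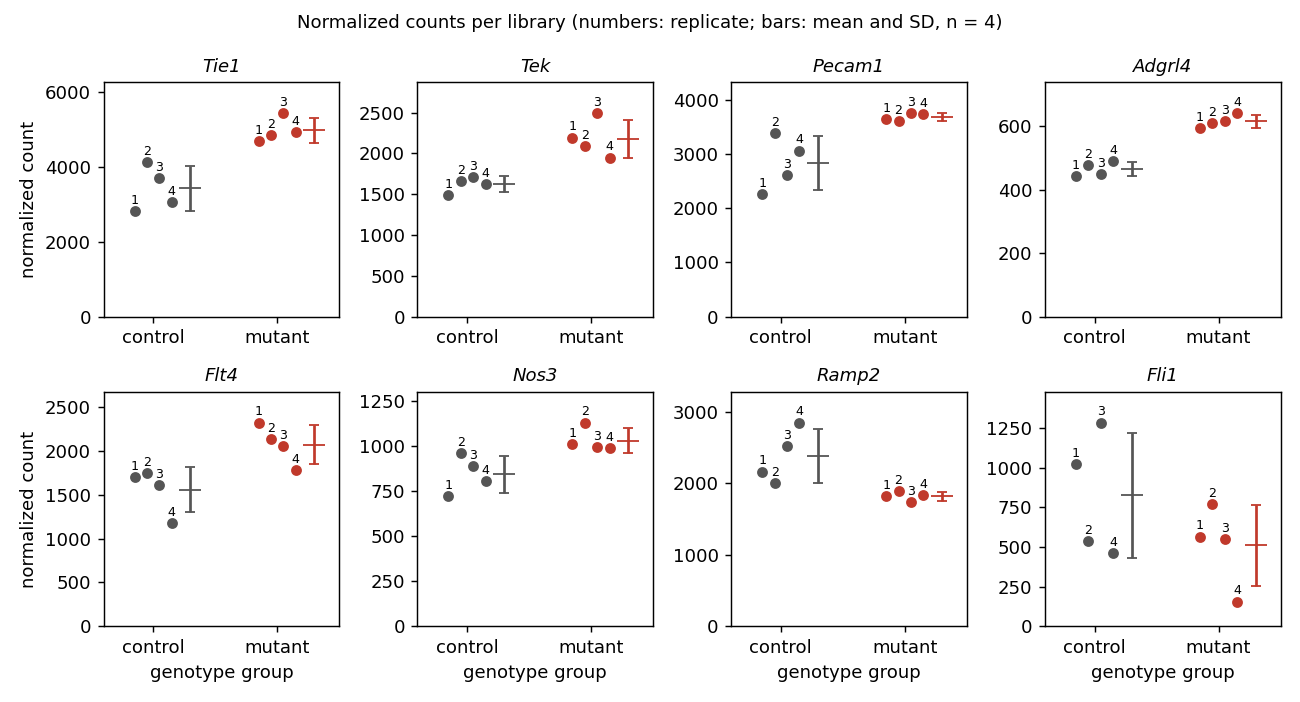
Normalized counts (vertical axes, from 0) of 8 endothelial genes in each control (grey) and mutant (red) library, numbered by replicate, with the group mean and SD (n = 4). In the first 6 panels every mutant point is above every control point. Ramp2 shows the reverse, and Fli1 overlaps, with the widest spread relative to its mean.

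Of 7 transcription factors of endothelial identity, 6 had positive fold changes (51.7% of all genes did). That of Fli1 was negative, with a 95% interval that crossed 0 (−1.89 to 0.33). Erg had 739.6, 782, 881 and 719.6 normalized counts across controls 1 to 4, against 866, 967, 1149.5 and 913 across the mutants in the same order. ERG is an ETS factor that maintains endothelial junctions. Mutant 1 lay within the control range, and the fold change was 0.32 (SE 0.11; adjusted p = 0.303 by limma). Tal1 had 224, 231, 190.1 and 266 normalized counts across controls 1 to 4, against 257, 427, 335 and 284 across the mutants in the same order. Tal1, a factor of blood and endothelial specification, had its highest value in mutant 2, while mutant 1 lay within the control range. Its fold change was 0.50 (SE 0.18; adjusted p = 0.316 by limma). Mutant 2 also had the highest sum of erythroid genes, 411046 normalized counts, while mutant 3, next for Tal1, had 239810. Hba-a2 had 172300 in mutant 2 and 1817.5 in mutant 3, while Hba-a1 had 147560 and 201210. The contrast between these sums therefore rests on Hba-a2. Whether blood cells contributed to the Tal1 values was not tested. Lyl1, a relative of Tal1, had a fold change of 0.35 (95% interval −0.23 to 0.93). Sox17 had 323, 493, 438 and 567 normalized counts across controls 1 to 4, against 547, 529.7, 600.0 and 723 across the mutants in the same order. SOX17 promotes arterial fate. Control 4 lay within the mutant range, and the fold change was 0.42 (SE 0.18; adjusted p = 0.394 by limma). Sox7 (0.25, 95% interval −0.11 to 0.60) and Sox18 (0.20, 95% interval −0.10 to 0.50), the other SOXF genes, overlapped between groups.

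Fli1 had 1022, 539, 1286 and 462 normalized counts across controls 1 to 4, against 566, 770.5, 552 and 156 across the mutants in the same order. Its spread within groups, relative to the mean, was the widest of the set, and its lowest library was a mutant and its highest a control. The fold change was −0.78 (SE 0.49; adjusted p = 0.569 by limma). Fli1 encodes an ETS factor of endothelium that is also expressed in blood cells and mesenchyme. The summed level of 8 nephron progenitor markers was 32508, 21339, 28310.1 and 17048 across controls 1 to 4 and 10610.5, 9649.6, 5328 and 4219.6 across the mutants. Both were highest in controls 1 and 3 and lowest in mutant 4, but Fli1 in controls 2 and 4 lay below mutants 1 and 2, while the progenitor sums of those controls lay above every mutant. Whether other cells contributed to the Fli1 values was not tested.

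Surface and junction proteins held 12 of the 35 genes, of which 10 had positive fold changes (51.7% of all genes did) and 5 were higher at an unadjusted p below 0.05 (6.33% of all genes). Pecam1 had 2254, 3386, 2605 and 3061 normalized counts across controls 1 to 4, against 3645, 3608, 3758 and 3739 across the mutants in the same order. PECAM1 joins neighbouring endothelial cells and is also carried by leukocytes and platelets. The mutants were nearly equal to one another and above all controls, with a fold change of 0.40 (SE 0.12; adjusted p = 0.209 by limma). Adgrl4 had 444, 477, 448 and 489.9 normalized counts across controls 1 to 4, against 595, 610.5, 616 and 643 across the mutants in the same order. Adgrl4, an adhesion receptor that regulates sprouting, showed little spread in either group and a fold change of 0.41 (SE 0.09; adjusted p = 0.111 by limma). Icam2 had 552, 736, 669 and 941 normalized counts across controls 1 to 4, against 889.9, 908, 1002 and 934 across the mutants in the same order. ICAM2 is an adhesion molecule for leukocytes. Control 4 lay within the mutant range, and the fold change was 0.39 (SE 0.15; adjusted p = 0.331 by limma).

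Icam2 was the 1 gene of the 35 in the authors' deposited table, which lists 644 genes, 3.02% of all gene rows. The authors' deposited table gives Icam2 a log2 fold change of 0.518 (SE 0.131) and an adjusted p of 0.00359. In the authors' deposited table every listed gene has an absolute log2 fold change of at least 0.5 and an adjusted p of at most 0.0498. In the limma fit 2 of the 35 genes, Tie1 and Fli1, had an absolute log2 fold change of at least 0.5.

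Among the remaining surface genes, Adgrf5 (0.31, 95% interval 0.01 to 0.61) and Clec14a (0.30, 95% interval 0.007 to 0.60) had an unadjusted p below 0.05. Both are receptors at the endothelial surface. Plvap (0.23), the junction protein gene Esam (0.28), Emcn (0.24), a sialomucin of capillaries and veins, and Ecscr (0.17) did not reach that p. The arterial connexins showed no shared difference. Gja5 had 316, 595, 403 and 340.4 normalized counts across controls 1 to 4, against 461, 532, 387 and 272 across the mutants in the same order. Gja5 encodes connexin 40, a gap junction protein of arteries, and its group means were nearly equal (95% interval of the fold change −0.56 to 0.55). Gja4 had 407, 678, 589.9 and 736 normalized counts across controls 1 to 4, against 688, 754, 660.1 and 527 across the mutants in the same order. Gja4, which encodes connexin 37, had a fold change of 0.15 (95% interval −0.28 to 0.57). Mutant 4 was the lowest mutant for both connexins. Myct1 had 191, 321, 246 and 374 normalized counts across controls 1 to 4, against 197, 220.4, 331 and 239 across the mutants in the same order. Myct1, a membrane protein of endothelium, overlapped between groups (fold change −0.18, 95% interval −0.71 to 0.35).

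The intracellular signalling genes were all on the positive side. Nos3 had 723, 959.6, 887 and 805 normalized counts across controls 1 to 4, against 1008, 1129.6, 995 and 987 across the mutants in the same order. NOS3 makes nitric oxide in endothelium. Its groups were separated by a small margin, and the fold change was 0.29 (SE 0.11; adjusted p = 0.308 by limma). Rasip1 had 2742, 3508, 2985 and 2856 normalized counts across controls 1 to 4, against 3483, 3852, 3798 and 3319 across the mutants in the same order. RASIP1 is needed for vessel lumens to open, and control 2 lay within the mutant range (fold change 0.26, SE 0.09; adjusted p = 0.305 by limma). She, an adaptor protein, had a fold change of 0.23 (95% interval −0.07 to 0.53).

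Of the secreted proteins, Esm1 had 116, 164, 139.8 and 155 normalized counts across controls 1 to 4, against 129, 115, 117 and 150.3 across the mutants in the same order. The groups overlapped (fold change −0.17, 95% interval −0.58 to 0.24). Vwf had 141, 228, 168 and 122 normalized counts across controls 1 to 4, against 234, 344, 225 and 134 across the mutants in the same order. Mutant 4 was close to control 4, both near the lower end, and the fold change was 0.47 (95% interval −0.20 to 1.13). Mutant 2 was highest for Vwf and for the summed megakaryocyte and platelet genes (586). Control 4, next in that sum (415), was lowest for Vwf. Control 4 held 44 estimated counts of Vwf and 56 of Esm1, so counting error is largest for these genes there. Egfl7, a matrix protein that surrounds vessels and whose intron carries miR-126, had a fold change of 0.19 (95% interval −0.24 to 0.62), and Mmrn2, a matrix ligand of CLEC14A, one of 0.23 (95% interval −0.13 to 0.59).

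**Figure D3:**
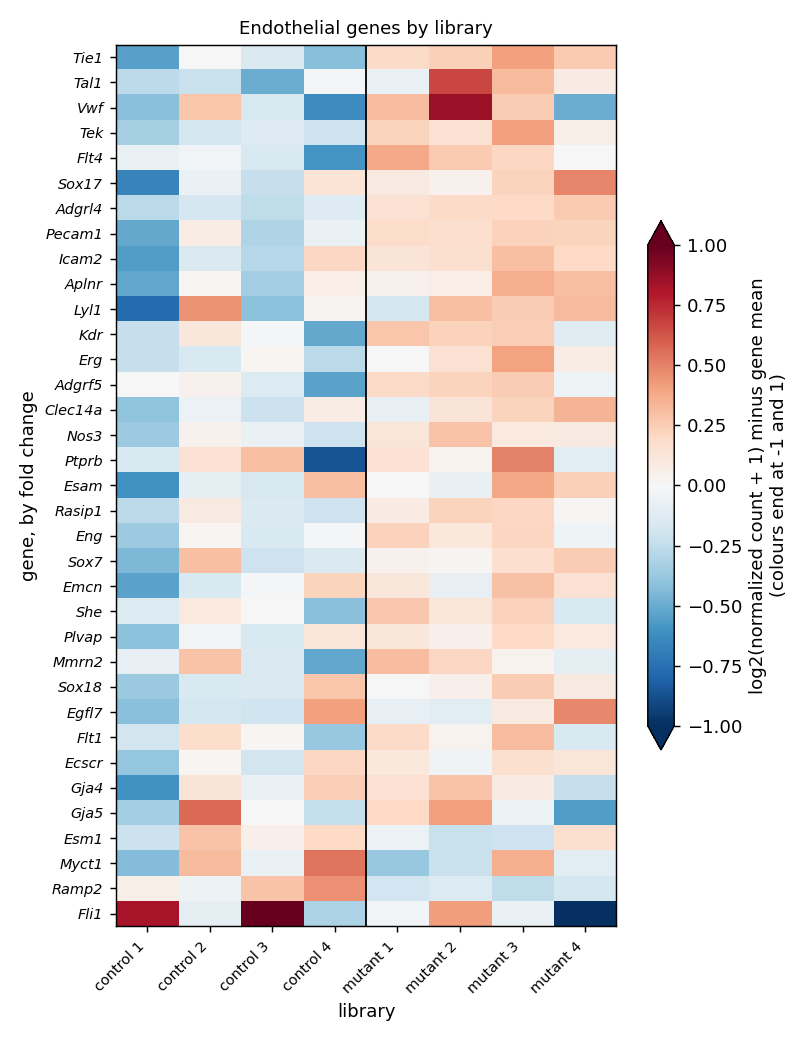
Log2(normalized count + 1) minus the mean of the gene over 8 libraries (colour, ends at −1 and 1) for each endothelial gene (rows, by fold change) in each library (columns). Control 1 is the lowest of the 8 libraries for 21 of 35 genes and mutant 3 the highest for 12; control 4 is low in some rows and high in others.

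Library by library, the lowest value of a gene was in a control for 31 of the 35, in control 1 for 21 and in control 4 for 9. The highest was in a mutant for 26, in mutant 3 for 12. The median of the 35 centred log2 values was −0.37 in control 1, 0.019 in control 2, −0.14 in control 3 and −0.068 in control 4, and 0.12, 0.15, 0.23 and 0.079 in mutants 1 to 4. Control 2, the highest control, thus lay below mutant 4, the lowest mutant, by less than the distance between controls 1 and 2. Library names carry a number, shared by controls 1 and 2 with mutants 1 and 2, and another shared by control 4 with mutant 4, and the labels do not say what it marks. Among the former 4 libraries 31 of 35 genes were higher in mutants, with a median difference of 0.29 on the log2 scale (50.8% and 0.003 for all genes). Between control 4 and mutant 4, 22 of 35 were, with a median of 0.23 (53.1% and 0.036 for all genes).

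The deviations of control 4 followed transcript length. Its 12 shortest endothelial transcripts, up to 2845 bases, were all above the mean of controls 1 to 3, with a median log2 difference of 0.44. Of the 12 longest, from 4132 bases, 3 were above it, and the median was −0.39. Egfl7, with 1391 bases, stood at 0.68, and Ptprb, with 11911, at −0.96 (log2 differences). Spearman's rank correlation between transcript length and this difference was −0.77 across the 35 genes and −0.44 across the 14137 tested genes with an annotated length. Genes are not independent replicates, and all points share the same libraries. For mutant 4 against mutants 1 to 3 the rank correlation was −0.52 across the 35 and −0.19 across all.

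**Figure D4:**
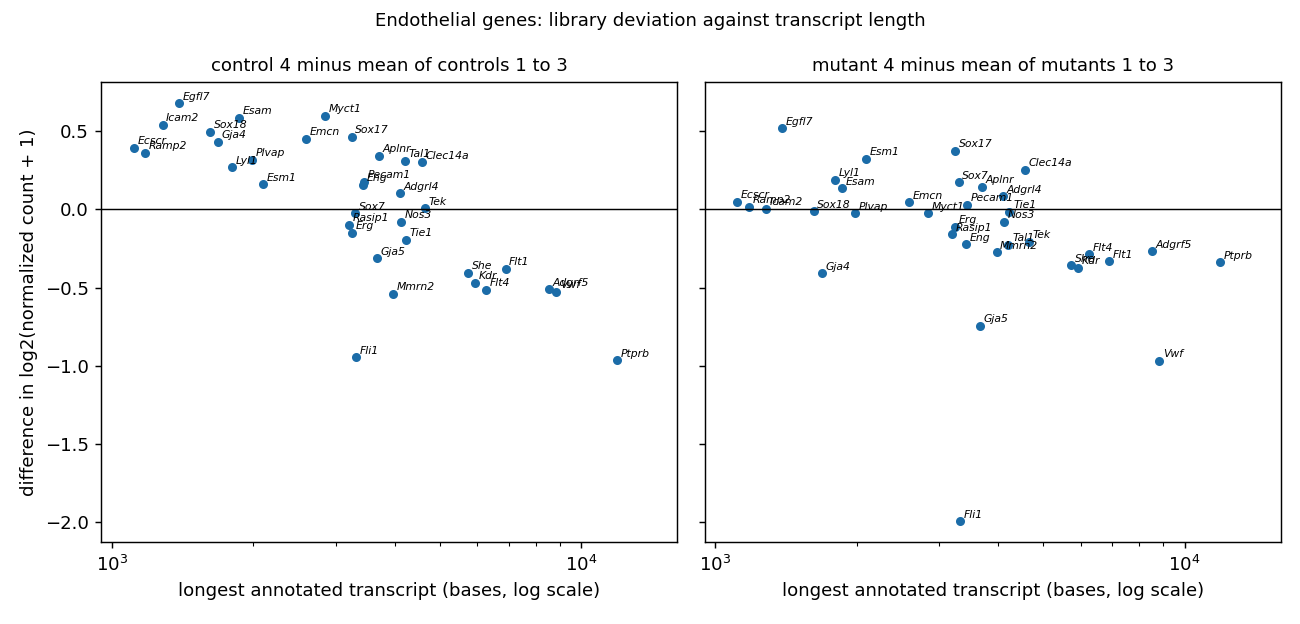
Difference of control 4 from the mean of controls 1 to 3 (left) and of mutant 4 from the mean of mutants 1 to 3 (right), in log2(normalized count + 1), against the longest annotated transcript in bases (log scale), 1 point for each endothelial gene. In the left panel all of the 12 shortest transcripts lie above 0, as do 3 of the 12 longest.

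Fold changes were set against length in the same way. The rank correlation between transcript length and the mutant fold change was 0.47 across the 35 genes with all libraries and −0.054 without control 4 (0.11 and −0.12 across all genes). With all libraries the median fold change was 0.19 for the 12 shortest and 0.32 for the 12 longest transcripts, and without control 4 it was 0.32 and 0.28. The median over the 35 genes without control 4 was 0.29, with 19 at an unadjusted p below 0.05 on the higher side. Control 4 reached the mutant range and was above the other controls for Icam2 (1282 bases), Sox17 (3242 bases) and Aplnr (3699 bases). Of these only Icam2 is among the 12 shortest, and whether length had a part in these overlaps was not tested.

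Each value was also set against the mean of the 3 markers Pecam1, Tie1 and Tek in the same library. That mean was higher in mutants by 0.46 on the log2 scale, above the median of 0.28 over the 35 genes, so a gene at that median has a negative ratio. Among the other 32 genes, 30 had a negative ratio, as did 89.9% of all genes, with a median of −0.20 beside −0.45 for all genes. The limma threshold was passed by 4, all lower: Ramp2 (log2 ratio −0.83, adjusted p = 0.00935), Myct1 (−0.64, adjusted p = 0.0306), Esm1 (−0.62, adjusted p = 0.0337) and Fli1 (−1.24, adjusted p = 0.0415). By the same rule 44.1% of all genes were lower, so 4 of 32 is a smaller share than the background. Ramp2 passed in all 8 fits that leave out 1 library, with adjusted p from 0.003 to 0.0419, but not in controls 1 and 2 against mutants 1 and 2, where 0 of the 32 did. The number of the 32 past the threshold was 1 without control 3 or mutant 3 (25.7% and 3.39% of all genes in those fits). It was 2 without control 1, mutant 1 or mutant 2 (26.9%, 31.1% and 31% of all genes). A ratio of this kind shows unequal change and not which gene was constant.

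Genes of the vascular growth factor pathway, a list of 39 that includes 9 of the 35, gave 30 positive fold changes (51.7% of all genes were positive) and a median of 0.24. One fell and 0 rose past the adjusted threshold. The gene that fell was Pgf, which encodes placental growth factor, a ligand of FLT1. Pgf had 313, 221, 319.6 and 232 normalized counts across controls 1 to 4, against 104, 148, 88.8 and 96.7 across the mutants in the same order. All mutants lay below all controls, and the log2 fold change was −1.31 (SE 0.21; adjusted p = 0.0441 by limma). It passed without control 4 or without mutant 2, and with any other library left out the adjusted p was 0.0634 to 0.187. Vegfa, the main VEGF ligand, averaged 1132 ± 115 in controls and 1162 ± 124 in mutants (fold change 0.04, 95% interval −0.20 to 0.28). Vegfc, the ligand of FLT4, had a fold change of 0.05 (95% interval −0.20 to 0.30). Those of the TEK ligands Angpt1 and Angpt2 were 0.24 (95% interval −0.03 to 0.51) and 0.50 (95% interval −0.20 to 1.20).

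Other endothelial genes, outside the 35, were taken from a further list. Of 24 measured, 19 had positive fold changes (51.7% of all genes did), and at an unadjusted p below 0.05 there were 9 on the higher side and 0 on the lower (6.33% and 5.72% of all genes), with a median of 0.21 and 0 past the adjusted threshold. Acvrl1, the receptor of BMP9 in vessels (0.61, SE 0.12, limma adjusted p = 0.0858), and Robo4 (0.46, SE 0.11, limma adjusted p = 0.139) had the smallest p-values. Cdh5, the junction protein VE-cadherin and a defining endothelial gene, averaged 3309 ± 265 in controls and 3839.6 ± 293 in mutants (fold change 0.21, 95% interval 0.02 to 0.41).

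Lists of endothelial subtypes showed no call over all genes. Of 12 arterial genes, 9 had positive fold changes (51.7% of all genes did). At an unadjusted p below 0.05, 5 were higher and 1 was lower (6.33% and 5.72% of all genes). Hey1 (0.42, limma adjusted p = 0.11) and Cxcr4 (−1.13, limma adjusted p = 0.143) had the smallest p-values. Of 4 venous genes tested 3 were positive, and 2 were higher and 1 lower at that unadjusted p. The smallest p-values were those of Nr2f2 (−0.83, limma adjusted p = 0.178) and Nrp2 (0.64, limma adjusted p = 0.182). Cxcr4, Hey1, Nr2f2 and Nrp2 are also expressed by non-endothelial cells of the kidney. Of 6 lymphatic genes 4 were positive, and 1 was higher and 0 lower at that unadjusted p. The smallest p-values were those of Flt4, described above, and Lyve1 (0.48, limma adjusted p = 0.499).

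Markers of other cell types were measured in the same libraries. Over all genes tested, 51.7% had a positive fold change and 0.301% passed the adjusted threshold. All 8 nephron progenitor markers had negative fold changes, with a median of −1.27 and 2 past the adjusted threshold, and their summed level was 17048 to 32508 normalized counts in controls and 4219.6 to 10610.5 in mutants. All 13 macrophage markers were positive (median 0.50, 0 past the threshold), with sums of 2673 to 4223 normalized counts in controls and 4200.3 to 5098 in mutants. At an unadjusted p below 0.05, 6 of the 13 were higher and 0 lower (6.33% and 5.72% of all genes). Of 11 mural cell markers 8 were positive (median 0.33), with sums of 18894 to 26112 normalized counts in controls and 20666 to 22891 in mutants. At an unadjusted p below 0.05, 3 mural markers were higher and 2 lower (6.33% and 5.72% of all genes). The smallest p-values were those of the lower 2, Des (−1.17, limma adjusted p = 0.058) and Ren1 (−2.38, limma adjusted p = 0.0744). Next was Abcc9, which was higher (0.67, limma adjusted p = 0.0932), with every mutant above every control. The 7 podocyte markers tested were all positive (median 0.81, sums of 5658 to 11388 normalized counts in controls and 8603 to 19192 in mutants), as were the 7 of the proximal tubule (median 1.68). Proximal tubule sums were 4899 for control 4, 5099.6 for mutant 3 and 13624 for mutant 4, and at most 976 in the other 5 libraries. The globin gene Hbb-y had 1594, 5118 and 1857 in control 4, mutant 3 and mutant 4, against 20349 to 36371 in the other 5. Hba-x had 196.5, 382 and 182 in the same order, against 1525 to 3025. What sets control 4 and mutants 3 and 4 apart was not tested. Of 12 erythroid genes 8 were positive, with sums of 179070.0 to 311416 normalized counts in controls and 209102 to 411046 in mutants. These sums depended on Hba-a2, which had 1817.5 and 1879.3 in mutants 3 and 4 and 50168 to 172300 in the other libraries. All 6 megakaryocyte and platelet genes tested were positive, with sums of 189 to 415 normalized counts in controls and 280.2 to 586 in mutants. Of 10 stromal genes 6 were positive, with sums of 91872 to 188646 normalized counts in controls and 152178 to 165806 in mutants. No marker of these lists was at 0 in all libraries. The summed level of the 35 endothelial genes was 38668 to 48753 normalized counts in controls and 50203 to 56483 in mutants, so it did not overlap between groups. Nor did the sum of the 24 other endothelial genes (28859 to 36166 and 36294 to 43856). The vascular growth factor list, which shares 9 genes with the 35, did not overlap either (57409 to 63389 and 66077 to 74867). The part of the other cell types in the endothelial values was not tested.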

How the data were processed

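Per the labels' protocols, polyA-selected libraries of E14.5 kidney pairs were sequenced as paired reads; the tools, per the submitters' processing notes, included DESeq2 1.40.2, kallisto 0.46.0 and fastp 0.23.2, and the build mm10, with roles and settings not stated. The deposited log2 values were made by the authors and are, per the values, log2 of an estimated count plus 1 without depth correction: 73.4% of recovered values were whole within 1e-06. The authors' second table gives a mean signal, log2 fold changes, a test score and p-values, per the file headers; the steps behind them are not stated. Recovered counts were divided by median-of-ratios size factors. The design had assumed depth-corrected values; the test was kept.

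The filter kept 14974 genes (10 or more normalized counts in 4 or more libraries). Genotype was tested two-sided on log2 values with a pseudocount of 1, by limma 3.58.1 (R 4.3.3, eBayes with trend). Adjustment over all tested genes was by Benjamini-Hochberg, called below 0.05. The pseudocount understates change in low genes. The same gene set was used in all alternatives but the filters: scaling, pseudocount, trend, robust fit, voom, blocks, subsets, a proximal tubule covariate and each library left out. The steps were tested on simulated counts. Intervals are 95%.

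The genes and lists were chosen with earlier results of these data known. Full values are given for Pecam1, Tie1, Tek, the 9 next smallest p-values, the 3 lowest fold changes, the highest and lowest mean level and the arterial, venous and lymphatic leaders; vascular lists name genes that were called, or else the 2 of smallest p, and other cell type lists are given as counts. Eng, Kdr, Flt1 and others are given by interval. Calcrl, Vegfa, Vegfc, Angpt1, Angpt2 and Cdh5 were named after their values were seen. So were Des, Ren1 and Abcc9 of the mural list and Hba-a1, Hba-a2, Hba-x and Hbb-y of the erythroid list. Vwf was chosen in the same way for its per-library values. Positions and lengths (longest transcript) come from GENCODE M21 on GRCm38, the assembly of mm10; 94.4% of tested genes had a length.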

Additional observations from a re-analysis of the deposited data

Results flagged for a closer look

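Among 70 sets of 4 values (35 genes in each group), 3 held a library far from the rest by Dixon's test; chance gives about 1 in 20. Kdr had 3028 normalized counts in mutant 4, against 3866 to 3994 in the other mutants. Nos3 had 1129.6 in mutant 2, against 987 to 1008. Lyl1 had 175 in mutant 1, against 236 to 247.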

How the results depend on the processing

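Over 24 alternatives, 29 of 35 genes kept the sign of their fold change in every one, and the number of positive genes ran from 29 to 31 when 1 library was left out. The count past the adjusted threshold was 0 in each fit that left out 1 library, 6 with voom and library weights (Tie1, Tek, Pecam1, Flt4, Icam2 and Adgrl4, with 1.77% of all genes called on that side), 1 without control 4 and mutant 4 (Tek) and 1 with the proximal tubule covariate (Flt4). The count at an unadjusted p below 0.05 on the higher side ran from 6 to 19 with 1 library left out, and was 2 on the deposited values, 10 in 6 libraries with the library name number as a block and 8 in controls 1 and 2 against mutants 1 and 2 (6.23%, 6.46% and 4.31% of all genes). The median fold change ran from 0.22 to 0.33 with 1 library left out, and was 0.41 with scaling to library totals and 0.75 on the deposited values, where the medians of all genes were 0.14 and 0.48. The count lower relative to the 3 markers ran from 1 to 4 with 1 library left out, and was 2 without a filter, 7 with library weights and 0 in controls 1 and 2 against mutants 1 and 2. In the main fit 44.1% of all genes were lower by this rule. The shares of all genes without a filter and with library weights were not counted, so those counts cannot be set against a background.

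Signs changed as follows. Gja5 was 0.13 with library totals, 0.018 with upper quartile scaling, 0.47 on the deposited values, 0.093 with library weights, 0.019 with the name number as a block, 0.19 in controls 1 and 2 against mutants 1 and 2, 0.11 without control 4 and mutant 4, 0.15 with the covariate, and 0.19, 0.002, 0.017 and 0.19 without control 2, control 3, mutant 3 or mutant 4, and from −0.14 to 0.19 over all 8 fits with 1 library left out. On the deposited values Ramp2 was 0.093, Esm1 0.30 and Myct1 0.29. Egfl7 was −0.079 with the covariate, and Gja4 −0.030 without control 1, the lowest of −0.030 to 0.26 with 1 library left out. The cause was not tested.

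With the replicate number in the titles as a block, 1 of 35 genes passed (Tie1, log2 fold change 0.55, adjusted p = 0.0475), as did 133 genes overall. The numbers are not stated to pair embryos: deviations of same-numbered libraries correlated at 0.27, 0.098, −0.13 and 0.35, and control 3 correlated best with mutant 1. Pgf no longer passed under the block (adjusted p = 0.0533), without a filter (0.0761), without the trend (0.0691), with library totals (0.18), on the deposited values (0.626), with the name number as a block (0.131) or in controls 1 and 2 against mutants 1 and 2 (0.322). Depth limits Vwf, Esm1 and Lyl1 most in control 4.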
